A study of Mus musculus with 10 samples.

Results

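The genes described here are 5 connexins, Gjb2, Gjb6, Gja1, Gjc3 and Gjc1, and pannexin 1 (Panx1). They are 6 of the 32285 genes in the count tables and were taken by symbol, with earlier results of these data known. They were measured by single-cell RNA sequencing (10x, 3′ ends) of cells from the inner ears of wild-type CBA/J mice aged 22 months, of both sexes, with 7 to 8 mice pooled in each library and no transgene or treatment other than ageing. Mice of a single age were analysed here, so differences are between organs or cell types and say nothing about ageing. The cochlea and the vestibule each had 4 independent libraries (replicates 1, 3, 4 and 5), since replicate 2 of each organ held the same cells as replicate 1 (1313 and 1633 shared barcodes, against at most 41 in any other pair) and was left out. After filtering, 7272 cochlear and 10424 vestibular cells remained, 17696 in all. Cells per library ranged from 571 to 5438, and UMIs (unique molecular identifiers, 1 per captured transcript) in the deposited tables from 2738036 to 26974948. Replicate 3 had the most cells and UMIs in both organs, but not the most UMIs per cell. Its median was 2063 in the cochlea, against 3298 in replicate 4, and 2102 in the vestibule, against 2584 in replicate 5. Although the samples are labelled as sensory epithelium, hair cells (HCs) were 222 of the cochlear and 1636 of the vestibular cells, and fibrocytes, fibroblasts, blood cells and, in the cochlea, neurons were also captured.

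Connexins form gap junctions. 6 connexin subunits make a hemichannel, and the hemichannels of neighbouring cells dock into a channel that passes ions and small molecules such as inositol trisphosphate. In the inner ear, Gjb2 (connexin 26) and Gjb6 (connexin 30) often assemble in the same channels. They join supporting cells into an epithelial network and fibrocytes into a connective tissue network. Loss of Gjb2 causes deafness in humans and mice. Gja1 (connexin 43) is the most widespread connexin of connective tissue and astrocytes, Gjc3 (connexin 29 in mice) belongs to myelinating glia, and Gjc1 (connexin 45) to pacemaker tissue, smooth muscle and some mesenchymal cells. Panx1 forms large channels in the plasma membrane of single cells that release ATP, rather than junctions between cells.

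Gjb2 and Gjb6 are neighbours on mouse chromosome 14 (GRCm38, GENCODE M21). Gjb2 lies at chr14:57098600-57104702 and Gjb6 at chr14:57123303-57133611, both on the minus strand, with 18600 bases between them. Gja1 is at chr10:56377330-56402513 (plus strand), Gjc3 at chr5:137953461-137963098, Gjc1 at chr11:102799579-102819700 and Panx1 at chr9:15002128-15045478, all 3 on the minus strand. No other annotated gene overlapped any of the 6, so their reads need not be shared with an overlapping gene. The 250 bases before the start of Gjb2 (chr14:57104703-57104952) and of Gjb6 (chr14:57133612-57133861) are shown, because these 2 genes had the most similar levels across cell types of any pair of members. They are from RefSeq (GRCm38.p6), read 5′ to 3′ on the minus strand, with GC boxes (GGGCGG on either strand, so also CCGCCC) in capitals.
Gjb2: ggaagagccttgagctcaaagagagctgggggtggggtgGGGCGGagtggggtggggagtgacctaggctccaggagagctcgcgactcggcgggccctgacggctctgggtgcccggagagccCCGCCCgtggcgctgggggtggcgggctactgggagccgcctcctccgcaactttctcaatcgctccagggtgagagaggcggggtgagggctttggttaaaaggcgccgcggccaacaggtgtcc
Gjb6: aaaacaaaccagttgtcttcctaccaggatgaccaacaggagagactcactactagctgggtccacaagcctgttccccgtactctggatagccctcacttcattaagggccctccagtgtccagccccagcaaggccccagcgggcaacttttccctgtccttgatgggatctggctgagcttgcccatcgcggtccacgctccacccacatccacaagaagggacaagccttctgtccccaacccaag
The Gjb2 stretch held 18 CpG and 2 GC boxes at a GC content of 69.2%. The Gjb6 stretch held 5 CpG and no GC box at 56.8%. Over all 32851 promoters of the same length the median GC content was 52.4%, and 32.7% held a GC box. Neither stretch held TATAAA (12.4% of all promoters, both strands) or ACAAAG, the core bound by SOX factors (16.5%). A match is a description of letters and not of binding, and the absence of one concerns these 250 bases alone.

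Cells were clustered without the connexin and pannexin genes, and clusters were named from marker genes that held none of them. The level of a gene in a class of cells is given as CPM, its UMIs per 1000000 UMIs of that class, for each library. Because 1 UMI is counted per transcript, at its 3′ end, CPM was not divided by transcript length. Differences are log2 fold changes with their standard error (SE) from edgeR's quasi-likelihood test on UMIs summed per library. P-values were adjusted over all genes tested (Benjamini-Hochberg), and a gene counted as past the threshold under 0.05. The filter on low counts also keeps a gene that is high in only 1 group, so the number of members that passed it is no evidence of a difference. Blood cells (B, T or NK, granulocyte and erythroid classes together), which should not make these connexins, gave a level that free RNA can leave in a droplet. It is no upper limit. For Gjb2, vestibular T or NK cells alone had 50.0 to 200.4 CPM, and vestibular macrophages, left out of this pool, had 95.3 to 747 CPM. In the pooled blood cells Gjb2 was at 48.7 ± 42.6 CPM (SD, n = 4 libraries) in the cochlea, with a UMI in 6.64% of 663 cells (median 2068 UMIs per cell), and at 49.0 ± 39.9 CPM in the vestibule, in 15.6% of 1201 cells (median 3496). Gjb6 was at 31.5 ± 24.7 and 24.3 ± 21.1 CPM in them, and the mean of each of the other 4 members was below 3 CPM.

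Gjb2 and Gjb6 were the abundant members, with 34170 and 19775 UMIs, against 630 of Panx1, 390 of Gjc3, 305 of Gjc1 and 281 of Gja1. Their order differed between the organs. In the cochlea, supporting cells led the named classes in Gjb2 (746 ± 154 CPM), followed by melanocytes or intermediate cells (374 ± 14.3, n = 2), HCs (295 ± 146) and other epithelial cells (246 ± 157), and the levels of the last 3 overlapped. In the vestibule, the cluster named fibroblast led (2430.1 ± 314), followed by fibrocytes (1621 ± 132), melanocytes or intermediate cells (382 ± 55.9) and supporting cells (298 ± 22.5), none of which overlapped. Of the cochlear Gjb2 UMIs 27.6% were in supporting cells and 62.6% in clusters that stayed unnamed. Of the vestibular ones 44.6% were in the cluster named fibroblast, 33.2% in fibrocytes and 2.98% in supporting cells. The fibrocyte markers of this vestibular cluster named fibroblast exceeded its fibroblast markers, as given below. Gjb6 had the same leading classes in each organ, but with overlaps. Cochlear supporting cells (567 ± 159 CPM) overlapped with melanocytes or intermediate cells (517 ± 99.9, n = 2). In the vestibule the cluster named fibroblast (1244 ± 191) overlapped with fibrocytes (992 ± 50.8).

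**Figure D1:**
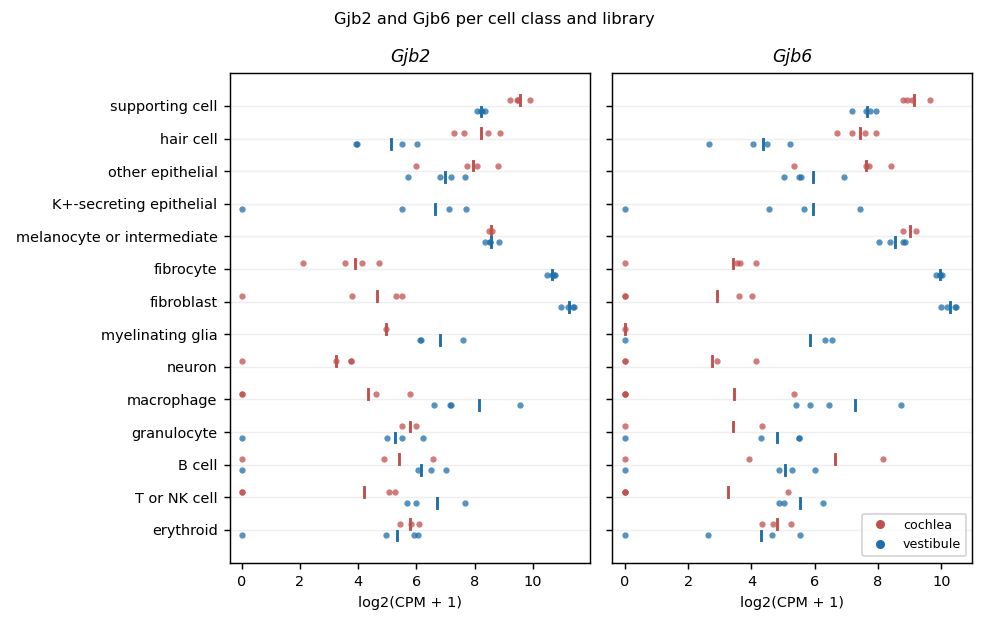
Level of Gjb2 (left) and Gjb6 (right) in each named cell class as log2(CPM + 1), with 1 point per library of the cochlea (red) and the vestibule (blue) and a bar at the log2 of the mean CPM + 1. Cochlear points lie above vestibular points in supporting cells and HCs and far below them in the classes named fibrocyte and fibroblast.

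Supporting cells, which surround HCs and take up the potassium ions that these release, had more Gjb2 and Gjb6 in the cochlea than in the vestibule. Gjb2 was at 963, 599, 720.1 and 702 CPM in cochlear replicates 1, 3, 4 and 5 and at 305, 324, 271 and 294 CPM in the same replicates of the vestibule. The lowest cochlear library was above the highest vestibular one, and the edgeR difference was 1.42 ± 0.204 (log2, SE, adjusted p = 1.5e-05). Gjb6 was at 798, 446, 480.4 and 542 CPM in the cochlea and at 245, 212, 195 and 144 CPM in the vestibule. Again no library overlapped, and the difference was 1.59 ± 0.222 (adjusted p = 1.01e-05). These were the 2 members that passed the filter, both past the threshold, where 29.5% of the 8104 genes tested were. A Gjb2 UMI was found in 75.0% of 1130 cochlear supporting cells (median 2644 UMIs) and 49.6% of 558 vestibular ones (median 2171.5), and with each cell thinned to 1000 UMIs in 46.5% and 26.7%. Of the cells with Gjb2, 71.9% in the cochlea and 50.5% in the vestibule also had Gjb6. Both classes carried supporting cell markers, but the sum of the 10 markers was 1072 to 1305 CPM in the cochlear and 4869 to 7030.0 CPM in the vestibular libraries, with Fgfr3 at 0 in the vestibule. The part of this composition in the difference was not tested.

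Cochlear supporting cells fell into 3 clusters that differed in the balance of the pair. The cluster led by Dgkb and Slitrk6, with Sox2 (693 cells), had Gjb2 at 901 ± 81.7 and Gjb6 at 561 ± 73.1 CPM, and the cluster led by Pcdh17 and Vldlr, with Fgfr3 (307 cells), had 694 ± 258 and 539.9 ± 266 CPM. The cluster led by Tectb, with Fgfr3 (130 cells), had Gjb2 at 222 ± 159 and Gjb6 at 537 ± 369 CPM. In this last cluster Gjb6 UMIs outnumbered Gjb2 UMIs in 4 of 4 libraries, by 69 to 29, 138 to 65, 36 to 14 and 9 to 3, while over all cochlear supporting cells Gjb2 was the more frequent in 4 of 4. The 2 vestibular supporting cell clusters, led by Slitrk6 and Otol1 and by Hhla1 and Zpld1, had Gjb2 at 304 ± 27.3 and 267 ± 31.5 CPM and Gjb6 at 200.5 ± 46.7 and 201 ± 17.3 CPM in that order.

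HCs, the mechanosensory cells, are generally held to lack gap junctions, and were compared with the supporting cells of the same libraries. In the cochlea Gjb2 was at 473, 155, 353 and 199 CPM in HCs of replicates 1, 3, 4 and 5, below the supporting cells of the same library each time. The difference of supporting cells over HCs was 1.54 ± 0.304 for Gjb2 (adjusted p = 0.000804) and 1.94 ± 0.273 for Gjb6 (adjusted p = 3.91e-05), the 2 members that passed the filter, where 40.2% of the 8122 genes tested were past the threshold. In the vestibule Gjb2 was at 14.3, 63.1, 44.3 and 14.5 CPM in HCs, within the range of the blood cells. There supporting cells exceeded HCs by 3.16 ± 0.298 for Gjb2 (adjusted p = 2.28e-09) and 3.36 ± 0.293 for Gjb6 (adjusted p = 5.63e-10), and these and Panx1, described below, were the 3 members that passed the filter, all past the threshold, where 58.4% of the 9216 genes tested were.

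Between the organs, cochlear HCs were higher than vestibular HCs by 2.95 ± 0.397 in Gjb2 (adjusted p = 4.75e-06) and 2.90 ± 0.357 in Gjb6 (adjusted p = 1.55e-06). With Panx1, all 3 members that passed the filter were past the threshold, where 37.5% of the 8877 genes tested were. Gjb6 was at 192, 103, 244 and 144 CPM in cochlear HCs and at 15.6, 36.3, 21.5 and 5.34 CPM in vestibular HCs, with no overlap. The cochlear value lay mostly in 1 of the 2 HC clusters. The cluster led by Otof and Slc17a8 (146 cells) had Gjb2 at 612, 168, 390.2 and 233 CPM, with a UMI in 50.0% of cells, and the cluster led by Ocm and Slc26a5 (76 cells) had 172, 34.9, 0 and 0 CPM, in 7.89% of cells. The first was also deeper, with a median of 9679.5 UMIs per cell against 2761.5 (17.1% and 0% of cells with Gjb2 at 1000 UMIs each), and its supporting cell markers summed to 476 CPM against 108. The 4 vestibular HC clusters had mean Gjb2 levels between 25.5 and 52.1 CPM. Among them the cluster led by Tctex1d1, Rasd2 and Calb2 had supporting cell markers that summed to 853 CPM and Gjb2 at 52.1 ± 27.7 CPM. The marker list holds Sox2, which the authors used to mark both type II HCs and supporting cells. A sum in vestibular HCs is therefore not specific to supporting cells. Over all HCs the 10 supporting cell markers, all of them detected in the cochlea, summed to 343 to 655 CPM in cochlear and 214 to 275 CPM in vestibular libraries (Fgfr3 at 0 in the latter). In supporting cells themselves they summed to 1072 to 1305 CPM in the cochlea and 4869 to 7030.0 CPM in the vestibule. The HC sums of the 2 organs are therefore not on 1 scale. Kcnj10, a potassium channel known from supporting and glial cells, was also higher in cochlear than in vestibular HCs (4.08 ± 0.424, adjusted p = 1.67e-07), as 1 of 4 potassium genes that were higher, with 3 lower, of 9 tested. Without cells of over 2 times the median UMIs of their class and library, a choice made after seeing the data, the organ difference was 2.05 for Gjb2 and 2.00 for Gjb6 (adjusted p = 0.00139 and 0.00134). The share of these UMIs that came from supporting cells or free RNA was not tested.

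The class of other epithelial cells was mixed. In the cochlea it held a cluster led by Crhbp and Vmo1 (372 cells), with Gjb6 at 24.7 ± 28.4 CPM, and a cluster led by Lmo3 and Rubie (114 cells), with Gjb2 at 826 ± 43.8 and Gjb6 at 636 ± 85.8 CPM (n = 3). Gjb2 was at 268, 212, 443 and 62.0 CPM in the class as a whole, and at 144, 201, 110.2 and 51.4 CPM in the vestibule, and the organs overlapped. The vestibular values also overlapped with those of vestibular macrophages and T or NK cells. The organ difference was 0.89 ± 0.474 for Gjb2 (adjusted p = 0.341) and 1.55 ± 0.511 for Gjb6 (adjusted p = 0.0926), so neither of the 2 members tested was past the threshold, where 8.26% of the 6561 genes tested were. For Gjb6 this rested on single libraries, since the difference was 2.24 without vestibular replicate 3 (adjusted p = 0.0143) and 1.88 without cochlear replicate 5 (adjusted p = 0.0233). Within each organ this class was lower than supporting cells. In the cochlea the difference was -1.73 ± 0.385 for Gjb2 (adjusted p = 0.00497) and -1.65 ± 0.396 for Gjb6 (adjusted p = 0.00862). Both members tested were past the threshold, where 17.1% of the 7981 genes tested were, and without cochlear replicate 3 the Gjb6 value of -1.71 was no longer past it (adjusted p = 0.0593). In the vestibule the difference was -1.20 ± 0.293 for Gjb2 (adjusted p = 0.00703) and -1.58 ± 0.328 for Gjb6 (adjusted p = 0.0022), again both members tested, where 19.3% of 6683 genes were. With the library as a block, which pairs classes of 1 library, 2211 and 2083 genes were past the threshold in these 2 contrasts in place of 1365 and 1289, and no call of a member was lost.

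Melanocytes or intermediate cells, the pigment cells of the stria vascularis and of the vestibular wall, had overlapping levels in the 2 organs. Gjb2 was at 384 and 364 CPM in cochlear replicates 3 and 5 and at 326, 459, 369 and 372 CPM in the vestibule, so the organs overlapped. Gjb6 was at 446 and 587 CPM against 444, 459, 258 and 331 CPM. With only 2 cochlear libraries of at least 5 cells (129 and 8 cells), a fit added after seeing the data gave organ differences of 0.03 ± 0.301 for Gjb2 (edgeR, adjusted p = 0.96), 0.50 ± 0.319 for Gjb6 (adjusted p = 0.364) and -0.27 ± 0.395 for Gjc3 (adjusted p = 0.725). None of these 3 members tested was past the threshold, where 6.22% of the 1109 genes tested were, and none was when a vestibular library was left out. The potassium-secreting epithelial cells of the vestibule (124 cells) had Gjb2 at 97.5 ± 93.5 CPM, which overlapped with the level of blood cells.

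Connective tissue held the highest levels of the pair, and in the cochlea these were outside the clusters that the markers could name. The cochlear cluster led by Fxyd2 and Kcnk2 (213 cells), with the fibrocyte markers Pou3f4 and Car3 enriched, had Gjb2 at 4202, 1901, 2063 and 2341 CPM and Gjb6 at 1422, 832, 676 and 892 CPM. It held the highest mean Gjb2 level of all cochlear clusters, with a UMI in 93.4% of cells. The cochlear cluster led by Otos and Gm525 (229 cells, Otos being a secreted protein of fibrocytes) had Gjb2 at 1314, 547, 463 and 569.7 CPM and Gjb6 at 876, 466, 540.2 and 609 CPM, with 179 of its cells in replicate 3 and 12, 15 and 23 in the others. The 2 cochlear clusters named fibrocyte, both led by Otor (892 cells together), had Gjb2 at 25.2, 16.6, 3.34 and 10.7 CPM, in 3.81% of cells, which was no higher than in blood cells. In the vestibule the 3 fibrocyte clusters, led by Otos, Ucma or Gm525 (2173 cells), had Gjb2 at 1435, 1631, 1741 and 1676 CPM, in 79.5% of cells. A further 3 cochlear clusters stayed unnamed and are not counted here as connective tissue. Epyc, a marker used here for pendrin (Slc26a4) epithelial cells, was enriched in all 3. The cluster led by Epyc (564 cells) had Gjb2 at 1037 ± 168 and Gjb6 at 593 ± 102 CPM. That led by Gm48242 and Lgals1 (313 cells) had 1093 ± 81.4 and 787 ± 207 CPM. That led by Otoa and Slc26a4 (238 cells) had 626 ± 108 and 319 ± 35.6 CPM.

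**Figure D2:**
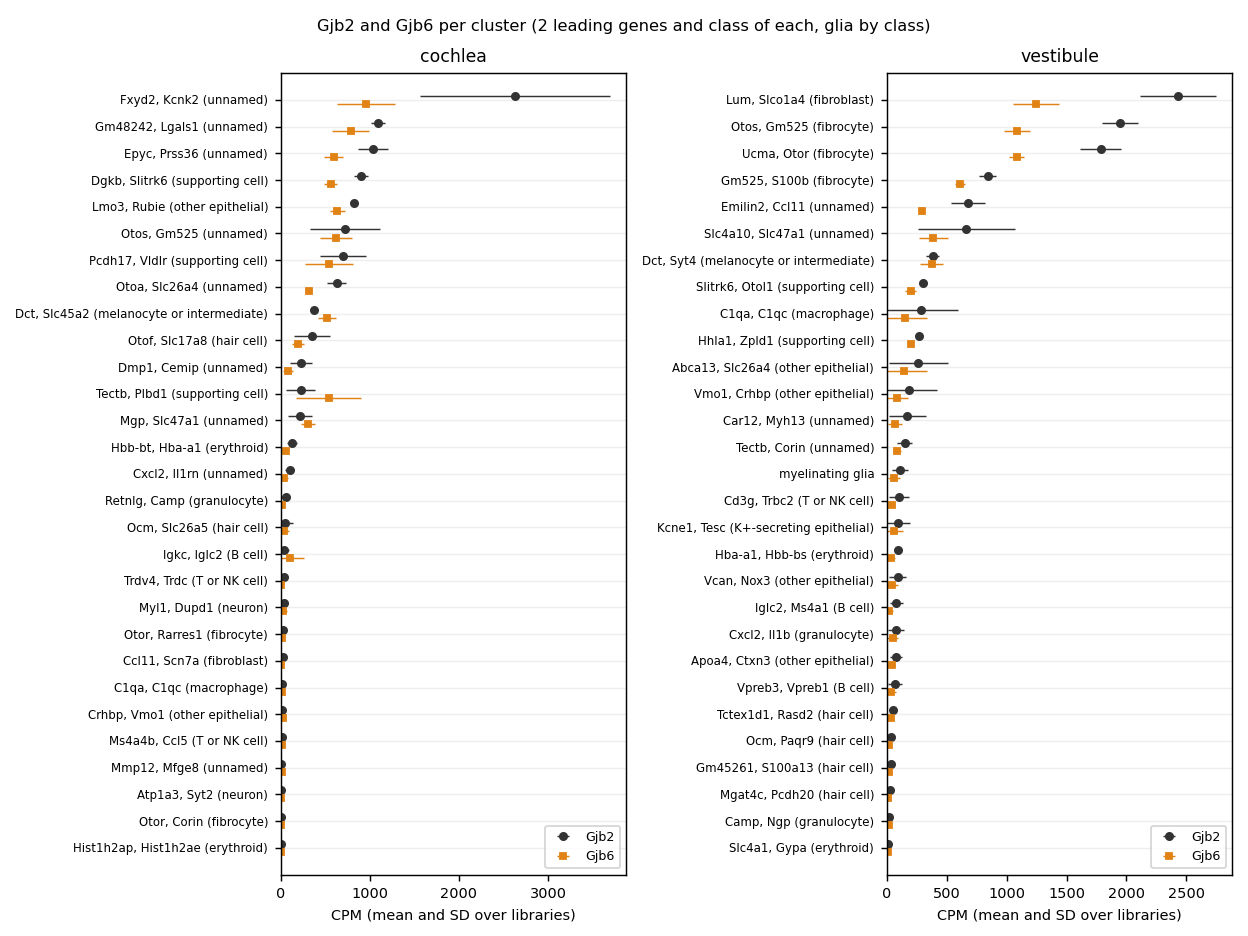
Mean and SD over libraries of Gjb2 (black circles) and Gjb6 (orange squares) in CPM for every cluster, ordered by Gjb2, in the cochlea (left) and the vestibule (right), with the 2 leading genes and the class of each cluster (glia by class alone). The cochlear cluster led by Fxyd2 and Kcnk2 (Gjb2 2627 ± 1066) and the vestibular cluster led by Lum and Slco1a4 (2430.1 ± 314) head the organs, and the 2 cochlear clusters led by Otor are near 0.

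For the clusters that the markers named fibrocyte, Gjb2 was lower in the cochlea (-7.51 ± 0.346 on the log2 scale, adjusted p = 5.76e-15), and Gjb6 was at -7.30 ± 0.391 (adjusted p = 6.52e-14). Of the 3 members tested these 2 were past the threshold, where 34.2% of the 8131 genes tested were, and Gjc1 was at -0.27 ± 0.315 (adjusted p = 0.546). Fibrocyte markers summed to 13206 to 15171 CPM in these cochlear clusters and 30324 to 37077 CPM in the vestibular ones, which other genes led. As these clusters are not matched, the organ and the cell type cannot be told apart in this comparison. The size of the difference rested on which clusters carried the name. Between the clusters led by Otos in each organ, a choice made after seeing the data, it was -1.39 ± 0.316 for Gjb2 (adjusted p = 0.0132) and -0.85 ± 0.269 for Gjb6 (adjusted p = 0.0837). With clusters of at least 2 fibrocyte markers that were unnamed or named fibrocyte, it was -0.84 ± 0.395 for Gjb2 (adjusted p = 0.183). For Gjb6 it was -1.52 ± 0.355 (adjusted p = 0.0048). This choice left out the vestibular cluster led by Lum, which was named fibroblast. Clusters at resolution 0.5 gave -0.98 for Gjb2 (adjusted p = 0.0762) and -1.78 for Gjb6 (adjusted p = 0.000593). The direction was the same in each of these.

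The same choice set the contrast of supporting cells with fibrocytes in the cochlea. With the named clusters, supporting cells exceeded fibrocytes by 6.02 ± 0.359 in Gjb2 (adjusted p = 8.72e-11) and 6.12 ± 0.444 in Gjb6 (adjusted p = 8.35e-10). These and Gjc1 were the 3 members tested, all past the threshold, where 49.5% of the 9102 genes tested were. Against the Otos-led cluster the difference was 0.10 ± 0.335 for Gjb2 (adjusted p = 0.898) and -0.16 ± 0.33 for Gjb6 (adjusted p = 0.821), and with clusters of at least 2 fibrocyte markers it was -0.29 ± 0.402 (adjusted p = 0.602) and 0.75 ± 0.368 (adjusted p = 0.113). In the vestibule supporting cells were below fibrocytes in both genes, by -2.91 ± 0.218 for Gjb2 (adjusted p = 8.47e-12) and -2.77 ± 0.21 for Gjb6 (adjusted p = 9.98e-12), the 2 members tested, where 41.1% of the 6212 genes tested were past the threshold. These vestibular values stayed between -3.11 and -2.35 in each of the 4 other ways of choosing the fibrocytes. The difference between the organs therefore differed between the classes as named, with the same limit on cell type. The interaction was 8.91 ± 0.415 for Gjb2 (adjusted p = 8.23e-17) and 8.87 ± 0.479 for Gjb6 (adjusted p = 2.65e-15), with 27.9% of 9911 genes past the threshold, and Gjc1, the third member tested, was at -1.52 ± 1.167 (adjusted p = 0.361). With the Otos-led clusters the interaction was 3.09 for Gjb2 (adjusted p = 2.67e-07) and 2.70 for Gjb6 (adjusted p = 1.82e-06), and with clusters of at least 2 fibrocyte markers 2.28 (adjusted p = 0.00106) and 3.13 (adjusted p = 1e-05).

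The clusters named fibroblast were not alike in the 2 organs. The vestibular one, led by Lum and Slco1a4 (1417 cells), had fibrocyte markers that summed to 25148 to 33195 CPM, above its fibroblast markers (1855 to 3398 CPM), and is called here by its leading genes. The cochlear one, led by Ccl11 and Scn7a (700 cells), had fibrocyte markers of 2147 to 3014 CPM and fibroblast markers of 8599 to 10474 CPM, with Col1a1 at 0. Gjb2 was at 2635, 2715, 2023 and 2348 CPM in the Lum-led vestibular cells and at 0, 37.9, 12.7 and 44.5 CPM in the Ccl11-led cochlear cells. The difference was -6.36 ± 0.358 for Gjb2 (adjusted p = 1.27e-16) and -6.85 ± 0.371 for Gjb6 (adjusted p = 4.38e-17), and with Gja1, 3 of the 4 members tested were past the threshold, where 26.8% of the 6025 genes tested were. As these clusters hold different markers, the organ and the cell type cannot be told apart here. A vestibular cluster led by Emilin2 and Ccl11 (254 cells, unnamed) had Gjb2 at 491, 639.8, 779 and 797 CPM.

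**Figure D3:**
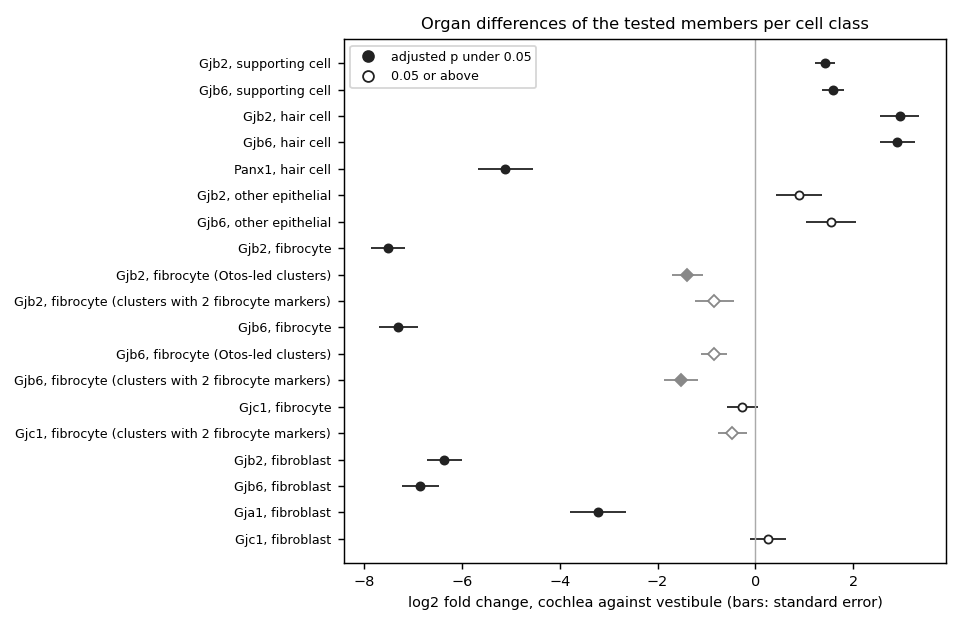
Log2 fold change of cochlea against vestibule with its SE for the members tested. The classes are supporting cells, HCs, other epithelial cells and those named fibrocyte and fibroblast. Symbols are filled where the adjusted p was under 0.05. Grey diamonds give the fibrocyte values with other choices of clusters, which shrink the Gjb2 difference from -7.51 to -1.39 and -0.84.

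Gjb6 as a share of the UMIs of the pair showed whether the 2 genes changed together between organs, since the depth of a class cancels in it. In supporting cells Gjb6 was 42.9% ± 2.21 (SD, n = 4) of the pair in the cochlea and 39.7% ± 4.97 in the vestibule (exact two-sided permutation test, p = 0.314, adjusted over 3 classes 0.471). In HCs it was 28.8% to 42.1% and 26.9% to 52.2% (means 37.9% and 37.1%, exact permutation p = 0.914), and in other epithelial cells 43.4% ± 3.65 and 32.2% ± 6.91 (exact permutation p = 0.0286, adjusted 0.0857). In the last class no library overlapped between the organs and p was the smallest that 4 libraries against 4 allow. Over 3 classes, that p in 1 class alone cannot pass the correction, so the adjusted value does not decide. Cochlear fibrocytes and fibroblasts had too few UMIs of the pair for this share. Across 26 points, each a class in an organ, Gjb2 and Gjb6 had a correlation of log levels of 0.91, the highest of the 15 pairs of members, and these points share libraries and free RNA. Of the 9946 genes with a mean of at least 10 CPM, Tpd52l1 (0.82) and Mpzl2 (0.80) were the most like Gjb2 and were also the most like Gjb6 (0.85 and 0.84).

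Gja1 was scarce in every named class. Its highest level in a class was in the Lum-led vestibular cells, at 16.4, 29.3, 23.8 and 27.1 CPM, in 6.14% of 1417 cells. The Ccl11-led cochlear cells had 0, 2.17, 25.5 and 0 CPM, from 4 UMIs in all, and replicate 4 overlapped with the vestibule. The difference was -3.22 ± 0.574 (adjusted p = 2.54e-05), with the same limit on cell type as for Gjb2. Vestibular fibrocytes were at 7.42 ± 3.27 CPM and cochlear fibrocytes at 0.169 ± 0.338, from 2 UMIs. Unnamed clusters were higher. Those led by Slc47a1, Mgp and Slc4a10 had Gja1 at 124 and 55.4 CPM in cochlear replicates 1 and 3. These values came from 2 and 29 UMIs in 9 and 169 cells. In vestibular replicates 1, 3, 4 and 5 Gja1 was at 76.6, 151, 29.7 and 107 CPM, and the organs overlapped. The Otos-led cochlear cluster was at 109.5, 133, 0 and 0 CPM, from 2, 46, 0 and 0 UMIs in 12, 179, 15 and 23 cells. Thus 2 of 4 libraries had no Gja1 UMI there. In vestibular supporting cells there was no Gja1 UMI in 558 cells, and in HCs there were 1 in the cochlea and 2 in the vestibule. At these counts, differences between the epithelial classes were not detectable.

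Gjc1 was low and was found in some connective tissue clusters of both organs and not in others. It was at 36.3, 18.4, 38.2 and 33.4 CPM in Ccl11-led cochlear fibroblasts, from 1, 17, 3 and 9 UMIs. In Otor-led cochlear fibrocytes it was at 50.5, 17.9, 15.9 and 13.1 CPM. The vestibular values were 26.3, 17.6, 15.1 and 10.9 CPM in Lum-led cells and 14.6, 18.7, 15.3 and 9.48 CPM in fibrocytes. The organs overlapped in both classes, and neither organ difference passed the threshold (0.26 ± 0.364, adjusted p = 0.709, and -0.27 ± 0.315, adjusted p = 0.546). Within the cochlea fibrocytes held 89 Gjc1 UMIs and supporting cells 2, a ratio of CPM of 50.9 (exact 95% interval 13.7 to 427, counting error only), and the fitted difference of supporting cells over fibrocytes was -5.27 ± 0.58 (adjusted p = 2.47e-07). Between these classes as named, Gjc1 had the opposite order to Gjb2. With clusters of at least 2 fibrocyte markers the Gjc1 difference was -4.83 ± 0.54 (adjusted p = 1.32e-06), but the Otos-led cochlear cluster had no Gjc1 UMI in any library, so it showed no excess of Gjc1 over supporting cells. The Fxyd2-led cochlear cluster had 0, 1, 0 and 1 UMIs. Fzd10 (0.92) had the most similar levels to Gjc1 across the 26 points.

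Gjc3 was found in 2 classes of neural crest or glial kind. In vestibular myelinating glia it was at 503, 556 and 514 CPM in replicates 3, 4 and 5, in 60.2% of 88 cells. In the cochlea only replicate 3 had at least 5 such cells, with Gjc3 at 497 CPM, and over all libraries 19 of 22 cells had a UMI. Melanocytes or intermediate cells had 115 and 224 CPM in cochlear replicates 3 and 5 and 207, 145, 197 and 207 CPM in the vestibule, which overlapped. In the other named classes the mean was at most 4.19 CPM, that of cochlear neurons. Edil3 (0.89) and Lgi4 (0.87) were among the genes most like it across the 26 points. In the Otos-led cochlear cluster Gjc3 was at 40.2 ± 49.9 CPM, and Mbp, a myelin gene, was among the genes that led that cluster.

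Among the named classes Panx1 was highest in HCs in the vestibule and in neurons in the cochlea, where no connexin among the members was highest. In vestibular HCs it was at 53.4, 46.2, 43.0 and 26.7 CPM, in 264 of 1636 cells (16.1%), against 0.666% of vestibular blood cells. Cochlear HCs had 2 UMIs in 222 cells, both in replicate 3, and 0 in the other 3 libraries. The ratio of CPM was 38.9 (exact 95% interval 10.7 to 322, counting error only), and the fitted difference was -5.11 ± 0.571 (adjusted p = 4.4e-07). Without cochlear replicate 3 the cochlear side had no UMI, and the fitted value of -8.62 is no bound. The median depth was 5402 UMIs per cell in cochlear and 4289 in vestibular HCs. By cluster it was 9679.5 in the Otof-led and 2761.5 in the Ocm-led cochlear HCs and 3564 to 4712 in the vestibular ones, and the part of depth in the difference was not tested. All 4 vestibular HC clusters had Panx1, at 24.6 ± 5.68 CPM in the cluster led by Mgat4c and Pcdh20, 47.4 ± 22.5 in that led by Gm45261 and S100a13, 44.2 ± 18.3 in that led by Ocm and 66.4 ± 22.6 in that led by Tctex1d1 and Calb2. In the last it was at 96.7, 65.8, 61.0 and 42.2 CPM and in the Mgat4c-led cluster at 29.3, 26.3, 26.6 and 16.4 CPM, which did not overlap. Unnamed vestibular clusters held 132 of the 505 Panx1 UMIs (26.1%), among them the cluster led by Car12 and Myh13 (34.8, 43.8, 35.5 and 19.8 CPM) and that led by Tectb and Corin (17.2, 30.6, 19.0 and 24.4 CPM), both with HC markers enriched.

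Vestibular supporting cells had 7 Panx1 UMIs, and HCs exceeded them by a ratio of 11.8 (exact 95% interval 5.64 to 29.5), a fitted difference of -3.30 ± 0.427 for supporting cells over HCs (adjusted p = 3.89e-07). In cochlear supporting cells there was no Panx1 UMI in 1130 cells, which at 3 counts allows a share of cells with a UMI of up to 0.265% and does not limit the share of cells that express the gene. Cochlear neurons had Panx1 at 28.2, 24.7 and 24.9 CPM in replicates 3, 4 and 5 and no UMI in the 11 neurons of replicate 1. Over all, 62 of 299 neurons (20.7%) had a UMI at a median of 8349 UMIs per cell, and 1.67% did with each cell thinned to 1000 UMIs, against 4.1% of vestibular HCs thinned in the same way. Nefl, a neurofilament gene, was the gene most like Panx1 (0.70).

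**Figure D4:**
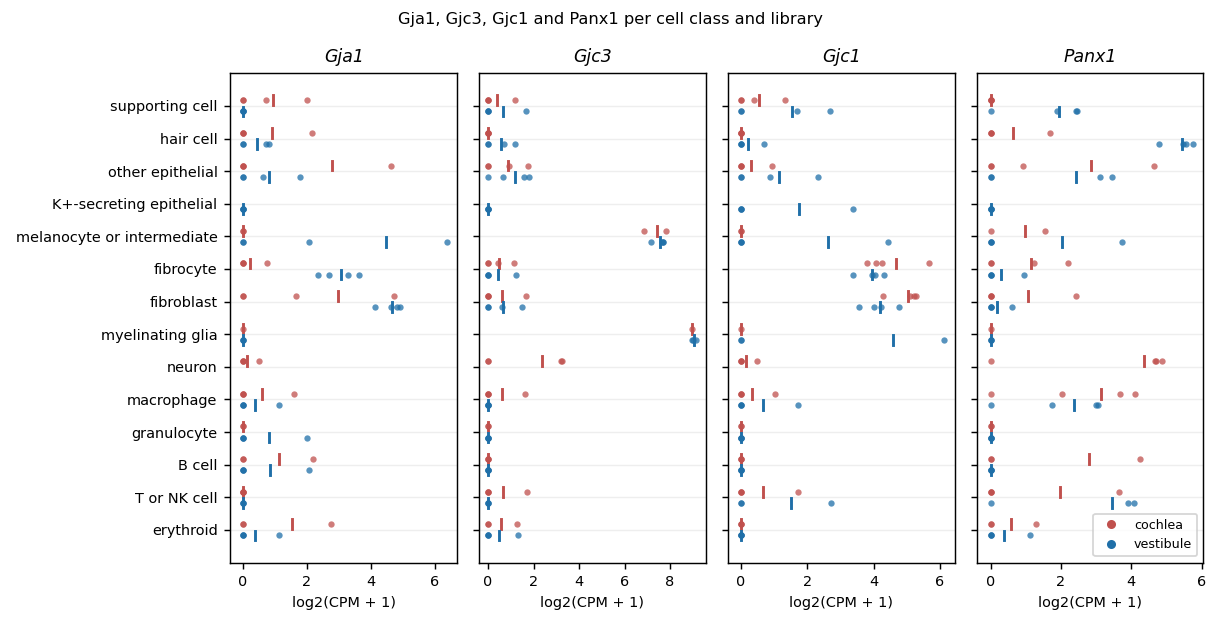
Level of Gja1, Gjc3, Gjc1 and Panx1 as log2(CPM + 1) in each named cell class, with 1 point per library of the cochlea (red) and the vestibule (blue) and a bar at the log2 of the mean CPM + 1. Gjc3 stands out in myelinating glia and melanocytes or intermediate cells. Gjc1 does so in the classes named fibrocyte and fibroblast, and Panx1 in vestibular HCs and cochlear neurons.

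Blood and immune classes gave little for the members. In erythroid cells Gjb2 (-0.84 ± 0.557, adjusted p = 0.413) and Gjb6 (-0.83 ± 0.693, adjusted p = 0.543) were not past the threshold, where 7.44% of 3762 genes were, and in B cells and T or NK cells no member passed the filter. In macrophages Gjb2 was the 1 member tested, at -2.41 ± 0.695 (adjusted p = 0.179), where 0.957% of 2613 genes were past the threshold. It was at 747 CPM in the 11 macrophages of vestibular replicate 1 and at 95.3 to 145 CPM in the other vestibular libraries.

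The tables held 17 other connexins and pannexins, of which 6 had at least 10 UMIs in all libraries together. Gjb1 (connexin 32), the connexin of myelin, had 112 of its 148 cochlear UMIs in the 22 glial cells, 20 of which had a UMI, and 21 of 29 in vestibular glia. Panx2 had 311 of 335 cochlear UMIs in neurons, in 48.8% of them, and 93 UMIs in the vestibule. Gjd2, the connexin of electrical synapses, had 53 of 56 cochlear UMIs in neurons and 30 of 39 vestibular UMIs in HCs. Gja4 had 10 UMIs, and the 11 relatives under that minimum had 0 to 8 UMIs. None of the 17 passed the filter in a comparison.

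Genes with related roles were counted by list. Of 9 genes of potassium uptake and buffering, which clear the potassium that HCs release, all 9 were tested in the vestibule and 7 were higher and 1 lower in supporting cells than in HCs (median 1.74, against -0.04 over all genes), with Kcnj10 at 5.54 ± 0.256, Kcnj16 at 3.34 ± 0.215 and Slc12a7 at 2.70 ± 0.33, where 58.4% of all genes were past the threshold. In the cochlea 5 were higher and 1 lower (median 0.63, against 0.04 over all genes, of which 40.2% were past the threshold), with Kcnj16 at 2.00 ± 0.406 and Kcnj10 at 1.70 ± 0.411. Between the organs 3 of the 9 were higher and 4 lower in cochlear supporting cells (median -0.36, against 0.02 over all genes, of which 29.5% were past the threshold), with the potassium chloride cotransporter Slc12a7 at 3.58 ± 0.298. The list thus did not move in 1 direction with Gjb2 and Gjb6 in supporting cells.

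Of 12 gap junction partners, which anchor or regulate connexins, 10 were tested between the organs in supporting cells and 1 was higher and 3 lower in the cochlea (median -0.38, against 0.02 over all genes), where 29.5% of all genes were past the threshold. Cav1, a protein of caveolae, was at 3.08 ± 0.501 and Tjp1, a scaffold that binds connexins, at -1.49 ± 0.199. In the clusters named fibrocyte 4 of 10 were higher and 1 lower, with Cav1 at 4.96 ± 0.268, where 34.2% of all genes were past the threshold and 131 in place of 2784 genes were with the Otos-led clusters. Of 12 genes of purinergic signalling, through which ATP released by channels acts, 4 were tested in supporting cells and 2 were lower in the cochlea, the ATP-degrading enzyme Entpd1 at -7.68 ± 0.731 and the ATP receptor P2rx2 at -1.18 ± 0.196. P2rx2 was at 3.91 ± 0.398 in HCs in the same comparison, 1 of 2 tested. In the vestibule supporting cells exceeded HCs in all 4 tested (P2rx2 at 6.44 ± 0.269), where 58.4% of all genes were past the threshold, and in the cochlea in 1 of 3 tested, where 40.2% were.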

How the data were processed

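Single-cell libraries were made by the authors with the 10x 3′ v3.1 kit from microdissected, collagenase-treated organs. The deposited values are raw UMI counts per gene and cell barcode, which the authors made with Cell Ranger against mm10 (version 6.1.2 per the labels, and 5.0.1 or 6.1.2 per the file headers). Nothing shows that libraries of 1 organ came from separate days. The p-values therefore measure the spread between pools of mice, with any part that went with the version, which was not tested.

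Barcodes under 200 genes, under 1000 UMIs or with 25% or more mitochondrial UMIs were dropped, and the rest were clustered per organ in Seurat 5.3.0 (2000 variable genes without the family, 30 components, resolution 1). A cluster was named when 3 of 6 markers of a class (4 of 10 for supporting cells) were enriched, that is, in at least 25% of its cells and raised by at least 1 on the log2 scale, and when its leading genes did not go against the name. Doublets were not removed, and a check without cells over 2 times the median UMIs of their class and library stands in for a caller. For each class with 5 or more cells in a library, UMIs were summed, and the sums were compared in edgeR 4.0.16 (TMM, filterByExpr, quasi-likelihood, R 4.3.3) with Benjamini-Hochberg adjustment over all genes tested. DESeq2 1.42.0, the tool the authors used on summed counts, was an alternative. The Gjb6 share was compared by an exact permutation test (scipy 1.17.1). The interaction of organ and class was fitted on the sums of both classes in both organs. Intervals for UMI ratios and shares are exact at 95% and cover counting error only, and a share of 0 is given the limit of 3 counts. The tests were tried on simulated data.

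The members, lists and markers were chosen with earlier results of these data known. Named were the 6 members, relatives with at least 10 UMIs, up to 3 genes per list and comparison with the largest change past the threshold, and the 5 genes most like each member (Pearson correlation over classes, mean of at least 10 CPM), of which the first are given. Some genes that this rule names are not reported here. Classes of an organ come from the same libraries, which pairs them by design (correlations of deviations 0.139 to 0.531 between supporting cells and HCs). The class contrasts and the interaction were fitted without a library term, so their SEs and p-values ignore this pairing. With the library as a block, supporting cells against HCs had 4674 genes past the threshold in the cochlea (3267 without) and 6573 in the vestibule (5381). Against fibrocytes the counts were 6316 (4502) and 3350 (2552). The numbers were not taken to pair the organs. Alternatives covered normalisation, filters, the test, clustering, cell filters, each library left out, the replicate block and the duplicate libraries.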

Additional observations from a re-analysis of the deposited data

Results flagged for a closer look

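In 8 of the 49 groups of 4 libraries tested, 1 library stood apart from the other 3 by Dixon's criterion. Chance alone meets it in about 1 in 20 groups of normally distributed values, which counts near 0 are not. Gjc1 in cochlear fibrocytes was at 50.5 CPM in replicate 1, from 6 UMIs, against 13.1 to 17.9 CPM in the others. Panx1 in cochlear neurons was at 0 CPM in replicate 1, which had 11 neurons, against 24.7 to 28.2 CPM. Gjc3 in vestibular melanocytes or intermediate cells was at 145 CPM in replicate 3, against 197 to 207 CPM. Gjb6 in vestibular other epithelial cells was at 122 CPM in replicate 3, against 31.8 to 46.1 CPM.

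The other 4 groups were of immune cells. In the 11 vestibular macrophages of replicate 1, Gjb2 was at 747 CPM against 95.3 to 145 CPM in the others, and Gjb6 was at 427 CPM against 41.8 to 87.1 CPM. In cochlear replicate 3, Gjb6 was at 40.1 CPM in 322 macrophages and at 34.7 CPM in 217 T or NK cells. It was at 0 in the other libraries of each class. These held 25, 15 and 24 macrophages and 19, 6 and 11 T or NK cells, too few for a 0 to show a lower level.

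The organ difference of supporting cells differed from that of the clusters named fibrocyte, which were not matched between the organs. The interaction term in edgeR was 8.91 ± 0.415 for Gjb2 and 8.87 ± 0.479 for Gjb6 on the log2 scale (adjusted p = 8.23e-17 and 2.65e-15). Both stayed past the threshold in each of the 4 other choices of fibrocyte clusters, at 2.28 to 6.67 and 2.70 to 6.34.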

How the results depend on the processing

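Of 585 tests of a member under an alternative, over 34 results, 564 kept their direction and their side of the threshold. Resolution 0.5 gave a fibrocyte organ difference of -0.98 for Gjb2 and differences of supporting cells over fibrocytes in the cochlea of -0.43 for Gjb2 and 0.63 for Gjb6. Choices of fibrocyte clusters made after seeing the data gave -0.85 (Gjb6, Otos-led clusters) and -0.84 (Gjb2, clusters with 2 fibrocyte markers) between organs, and 0.1 (Gjb2) and -0.16 (Gjb6) with Otos-led clusters and -0.29 (Gjb2) and 0.75 (Gjb6) with 2 markers in the cochlear contrast, none past the threshold. In other epithelial cells the organ difference passed it at resolution 2 (Gjb2 1.69, Gjb6 2.23), and for Gjb6 also with DESeq2 (1.59), without both libraries numbered 3 (2.21) and without cells over 2 times the median UMIs (1.24), with 1.19 to 2.24 when 1 library was left out. Gjb6 in other epithelial against supporting cells of the cochlea was -1.71 without both libraries numbered 3 and ranged from -2.11 to -1.36 when 1 was left out. In macrophages Gjb2 passed the threshold without the filter on low counts (-2.5), with the replicate block (-2.64) and without large cells (-2.29). The cause of these changes was not tested.

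Mean levels moved beyond 1 SD without large cells (cochlear supporting cells, Gjb2 969 and Gjb6 732 CPM), with the stricter cell filter (Gjc3 in vestibular glia, 416 CPM), as a mean over cells (564 CPM) and at resolution 0.5 (Panx1 in vestibular HCs, 54.9 CPM). Thinned to 1000 UMIs per cell, the share of cells with a UMI was 46.5% for Gjb2 and 36.8% for Gjb6 in cochlear supporting cells, 80.8%, 68.8% and 2.33% for Gjb2, Gjb6 and Gja1 in Lum-led vestibular cells, 10.3% and 38.6% for Gjc3 in cochlear melanocytes or intermediate cells and vestibular glia, and 1.67% and 4.1% for Panx1 in cochlear neurons and vestibular HCs. With 1 library left out, mean Gja1 in Ccl11-led cochlear cells ranged from 0.722 to 9.21 CPM, Panx1 in cochlear neurons from 16.5 to 25.9 CPM and Gjc3 in cochlear melanocytes or intermediate cells from 115 to 224 CPM.

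Over the alternatives the number of genes past the threshold between organs ranged from 11 to 855 in erythroid cells (280 as reported), 912 to 2412 in fibroblasts (1615), 131 to 4384 in fibrocytes (2784), 2215 to 4768 in HCs (3333), 0 to 177 in macrophages (25, and 0 without vestibular replicate 4), 103 to 794 in other epithelial cells (542) and 1010 to 3576 in supporting cells (2391). Within the cochlea it ranged from 1841 to 4674 for supporting cells against HCs (3267), 1120 to 6766 against fibrocytes (4502) and 649 to 2211 for other epithelial against supporting cells (1365). Within the vestibule the same ranges were 3407 to 7433 (5381), 1139 to 4166 (2552) and 503 to 2083 (1289), and for the interaction 705 to 3482 (2766). Same-numbered libraries of the 2 organs had correlations of deviations of 0.335, 0.245, 0.271 and 0.078 in supporting cells. Between supporting cells and HCs of the same vestibular library these were 0.334, 0.162, 0.241 and 0.139. In other epithelial cells the organs had 0.201, -0.205, 0.347 and 0.182. These values do not decide whether the numbers pair the organs. The numbers were not read as pairs, and the block changed no other call of a member. Depth limits Gja1, Gjc1 and Panx1, which had at most 630 UMIs in all.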
